A study of Danio rerio with 16 samples.

Results

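Photoreceptor and visual cycle genes are the genes with which rods and cones are specified, detect light and recover their pigment. The rule took every row of the count table whose Ensembl symbol, in any letter case, was among 36 chosen symbols. It found 23 rows for 20 of the symbols, of 32266 genes in the table. Of the 23 rows, 6 encode transcription factors and 17 encode proteins of the light response or the visual cycle, the path that rebuilds the chromophore 11-cis-retinal. The test kept 18 rows (6 transcription factor genes and 12 others) among 20630 genes, and 5 rows had too few counts. No row matched the symbols gngt1, gngt2b, pde6ga, pde6gb, arr3a, arr3b, grk1a, grk7a, grk7b, rcvrn2, rcvrn3, otx5, prph2a, prph2b, rpe65a and opn1sw1. The gene table writes 10 of the 23 rows with upper-case symbols, which are printed as given.

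RNA came from zebrafish (Danio rerio, Tropical 5D line) collected whole at 48 h post fertilization (hpf). The 4 groups were control morphants in DMSO, control morphants in TCDD, slincR morphants in DMSO and slincR morphants in TCDD, each with 4 biological replicates of 20 pooled embryos. Morpholinos are synthetic antisense molecules that bind a chosen RNA and keep it from being spliced or translated; slincR is a long noncoding RNA gene near sox9b, and every group had received a morpholino. Near 6 hpf the embryos spent 1 h in 0.1% dimethyl sulfoxide (DMSO), the vehicle, or in the dioxin TCDD (2,3,7,8-tetrachlorodibenzo-p-dioxin) at 1 ng/mL, which binds the aryl hydrocarbon receptor, and were then raised without it. The comparisons ask how TCDD, the slincR morpholino and their combination bear on these genes. The level of slincR itself was not analysed here.

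In a photoreceptor, light changes the shape of an opsin, which activates the G protein transducin. Transducin turns on phosphodiesterase 6, which breaks down cGMP and so closes ion channels. Kinases and arrestins switch the opsin off, calcium-binding proteins adjust the recovery, and the pigment epithelium and Müller glia return the chromophore. In zebrafish the retina is still forming its photoreceptors at this age, and the pineal organ holds light-sensitive cells of its own that use many of the same genes.

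Total counts over genes ran from 14977267 to 23142081 per library. Levels are given as CPM, a gene's share of the scaled library total, with the standard deviation (SD) over 4 libraries, and not per transcript length, so levels are not compared between genes. Log2 fold changes carry their standard error (SE), the 95% interval where printed, and a p from the edgeR quasi-likelihood (QL) test, adjusted by Benjamini and Hochberg (BH) over all genes tested; a gene passed at an adjusted p under 0.05. The library of replicate 4 of the control morphants in DMSO stood apart, with a first principal component score of −63.4 against −17.7 to 19.4 in the others, and 1111 of its genes were 2-fold or more under their mean elsewhere, against 215 to 331 in the others. As a check of the exposure labels, cyp1a, a standard target of the receptor, rose 154-fold in control and 166-fold in slincR morphants (edgeR QL, BH adjusted p = 2.7e-22 and 2.1e-22). In these whole-embryo RNA pools, fewer photoreceptors and less RNA per photoreceptor cannot be told apart.

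No photoreceptor or visual cycle gene passed the threshold in any of the 5 contrasts by the edgeR QL test, and none passed by DESeq2 or limma-voom. For TCDD in control morphants, 0 of 18 were called where 0.62% of all genes were. The share of all genes called was 0.383% for TCDD in slincR morphants, 0.15% for the slincR morpholino in DMSO, 0.446% for the morpholino in TCDD and 0% for the interaction, the TCDD response of slincR morphants less that of control morphants. At an unadjusted p under 0.05, edgeR gave 5, 3, 4, 4 and 0 of the 18 genes in that order, DESeq2 5, 4, 4, 4 and 0, and limma-voom 5, 3, 4, 3 and 0. Over all genes the share under that p by edgeR was 11.2%, 6.91%, 9.11%, 10.8% and 2.99%. None of the 23 rows was in the authors' deposited lists of 132 and 80 genes called for TCDD in control and in slincR morphants. The symbols without a row could not be looked up there by name. None of the rows that carry only a family name, described below, was in either list.

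Most fold changes for TCDD were nonetheless below 0. The median log2 fold change of the 18 genes was −0.19 in control morphants, with 16 below 0, and −0.25 in slincR morphants, with 13 below 0, while the median over all genes tested was 0.00 in both. For the slincR morpholino the median was −0.17 in DMSO, with 13 below 0, and −0.11 in TCDD, with 11 below 0, again against 0.00 over all genes. These contrasts share groups, so their medians are not independent of each other. The control morphants in DMSO, for example, enter both the TCDD contrast in control morphants and the morpholino contrast in DMSO. Every gene's interval is plotted in the forest plot of fold changes.

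**Figure D1:**
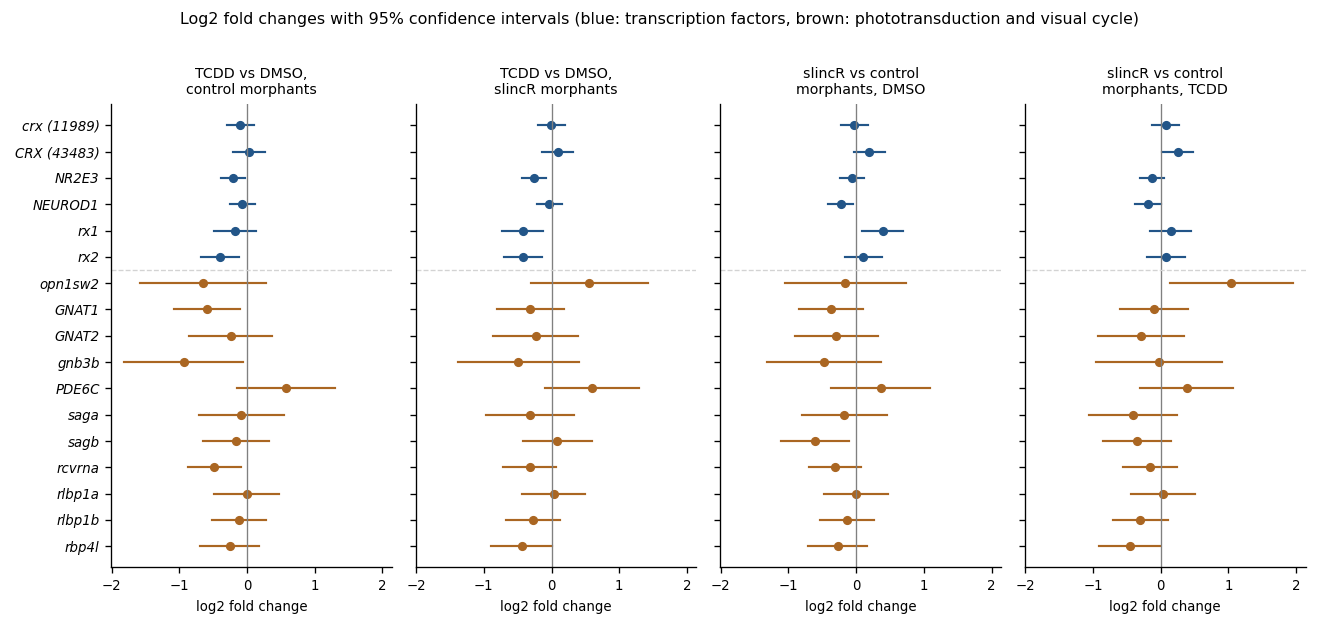
Log2 fold change (x axis) of 17 tested photoreceptor and visual cycle genes (y axis) in the 4 contrasts between groups, as points with 95% intervals from the edgeR QL fit. For TCDD in control morphants 15 of the 17 points lie below 0, and no gene passed the adjusted threshold in any panel.

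Among the 18 tested genes, the transcription factor genes had the most counts and the least spread. Together they cover photoreceptor specification. The gene crx directs the genes of rods and cones, and nr2e3 represses cone genes in the rods of mammals. The gene neurod1 drives neuronal and photoreceptor differentiation, and rx1 and rx2 are retinal homeobox genes of the eye field and later of photoreceptors. The median log2 fold change of the transcription factor genes for TCDD was −0.14 in control and −0.15 in slincR morphants, with 5 of 6 below 0 in each. For the slincR morpholino it was 0.04 in DMSO and 0.08 in TCDD. The symbol crx matched 2 rows, and which of the related zebrafish genes the upper-case row is was not settled by the gene table.

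The gene rx2 (ENSDARG00000040321) had the smallest p of the set for TCDD in both kinds of morphant. In control morphants it measured 13.4, 17.3, 14.9 and 19.1 CPM in DMSO and 13.3, 9.98, 13.4 and 12.6 CPM in TCDD. All 4 TCDD libraries lay below all 4 DMSO libraries, although the highest of the former and the lowest of the latter both round to 13.4. The log2 fold change was −0.40 ± 0.14 (SE), with an interval of −0.68 to −0.12 (edgeR QL, BH adjusted p = 0.237), and −0.31 without the replicate that stood apart. In slincR morphants rx2 measured 14.4, 17, 19.5 and 18.8 CPM in DMSO and 12.7, 14.2, 11.7 and 13.4 CPM in TCDD. Again the groups did not overlap, and the log2 fold change was −0.42 ± 0.13 (edgeR QL, BH adjusted p = 0.298). The difference between the responses was −0.02 ± 0.19, with an interval of −0.42 to 0.37. The morpholino's intervals, −0.17 to 0.38 in DMSO and −0.20 to 0.36 in TCDD, held 0.

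Its paralogue rx1 (ENSDARG00000071684) was measured at 10.9, 13.2, 10.7 and 17.6 CPM in control morphants in DMSO and at 10.6, 10.8, 11.7 and 13.2 CPM in those with TCDD. The high library of the first group was the replicate 4 that stood apart. In slincR morphants the values were 15.1, 17.6, 20.2 and 16 CPM in DMSO and 12.1, 14.7, 12.7 and 11.7 CPM in TCDD, without overlap. The TCDD log2 fold change was −0.18 ± 0.15 in control and −0.43 ± 0.15 in slincR morphants (edgeR QL, BH adjusted p = 0.691 and 0.36), and their difference of −0.25 ± 0.21 had an interval of −0.68 to 0.18. For the morpholino in DMSO the log2 fold change was 0.40 ± 0.15 (edgeR QL, BH adjusted p = 0.427), the only one of the 18 genes above 0 with an unadjusted p under 0.05 in that contrast. Without the replicate that stood apart it was 0.57, with an adjusted p = 0.13 by the same edgeR test, and the TCDD value in control morphants was −0.01.

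The nuclear receptor gene NR2E3 (ENSDARG00000045904) had a narrow spread. It measured 38.2, 34.4, 35.9 and 41.4 CPM in control morphants in DMSO and 32.6, 32.5, 31.8 and 33 CPM with TCDD. The slincR morphants gave 34.9, 38.6, 36.4 and 33.3 CPM in DMSO and 30.4, 30.2, 29.1 and 29.4 CPM with TCDD. The TCDD libraries were lower than the DMSO libraries without overlap in both, and among the TCDD libraries the slincR morphants were lower than the control morphants without overlap. Its log2 fold change for TCDD was −0.21 ± 0.09 in control morphants, with an interval of −0.39 to −0.03 (edgeR QL, BH adjusted p = 0.356). The slincR morphants gave a value of −0.26 ± 0.09, with an interval of −0.44 to −0.08 (edgeR QL, BH adjusted p = 0.327). For the slincR morpholino it was −0.07 ± 0.09 in DMSO and −0.13 ± 0.09 in TCDD. Without the replicate that stood apart the value in control morphants was −0.16.

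The factor gene crx (ENSDARG00000011989) was highest in the replicate that stood apart and varied less elsewhere. It measured 172, 179.8, 163 and 226 CPM and 156, 183, 167 and 184 CPM in control morphants in DMSO and TCDD, with 164, 184, 189 and 191 CPM and 177, 204, 178 and 167 CPM in slincR morphants. The groups overlapped in every contrast. Its log2 fold change for TCDD had an interval of −0.30 to 0.10 in control and −0.20 to 0.20 in slincR morphants, and for the morpholino one of −0.22 to 0.17 in DMSO and −0.13 to 0.27 in TCDD. The row CRX (ENSDARG00000043483) measured 37.5, 47.7, 43.3 and 55 CPM in control and 49.1, 56.1, 48.9 and 64 CPM in slincR morphants with TCDD, which overlapped. In DMSO its means were 44.9 ± 3.3 CPM in control and 51.3 ± 4.27 CPM in slincR morphants (SD, n = 4). The morpholino's log2 fold change was 0.19 ± 0.11 in DMSO and 0.25 ± 0.11 in TCDD (edgeR QL, BH adjusted p = 0.63 and 0.41), and its TCDD intervals held 0.

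NEUROD1 (ENSDARG00000019566), which is also expressed in other neurons and in endocrine cells, was lower on average in slincR morphants. In DMSO it measured 304, 268, 262 and 309.9 CPM in control and 234, 249.9, 219 and 275 CPM in slincR morphants. In TCDD the values were 292, 289.7, 243 and 265 CPM and 247, 241, 255 and 213 CPM. The groups overlapped in both media. The morpholino's log2 fold change was −0.22 ± 0.09 in DMSO and −0.19 ± 0.09 in TCDD (edgeR QL, BH adjusted p = 0.462 and 0.449). For TCDD the intervals of −0.25 to 0.12 in control and −0.22 to 0.15 in slincR morphants held 0. With a covariate for reads in no gene the TCDD value in control morphants moved from −0.07 to −0.18 (edgeR QL, unadjusted p = 0.0233, adjusted p = 0.22). The morpholino's value in TCDD moved from −0.19 to −0.10 (edgeR QL, unadjusted p = 0.183). That share was higher on average in control morphants with TCDD than in the groups compared with them here, so the covariate partly follows these contrasts.

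For TCDD in control morphants, 2 of the 6 transcription factor genes (NR2E3 and rx2) had lower TCDD libraries without overlap. Another gene of the 18, the recoverin gene rcvrna, did so as well, where 2.66% of all genes did. In slincR morphants the 3 such genes were NR2E3, rx1 and rx2, against 2.37% of all genes. None of the 18 was higher without overlap, where 2.93% of all genes were for TCDD in control morphants, 2.86% in slincR morphants, and 2.11% and 3.89% for the morpholino in DMSO and TCDD. The morpholino gave 0 such genes in DMSO, against 2.05% of all genes lower, and 1 in TCDD, NR2E3, against 3.77%.

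**Figure D2:**
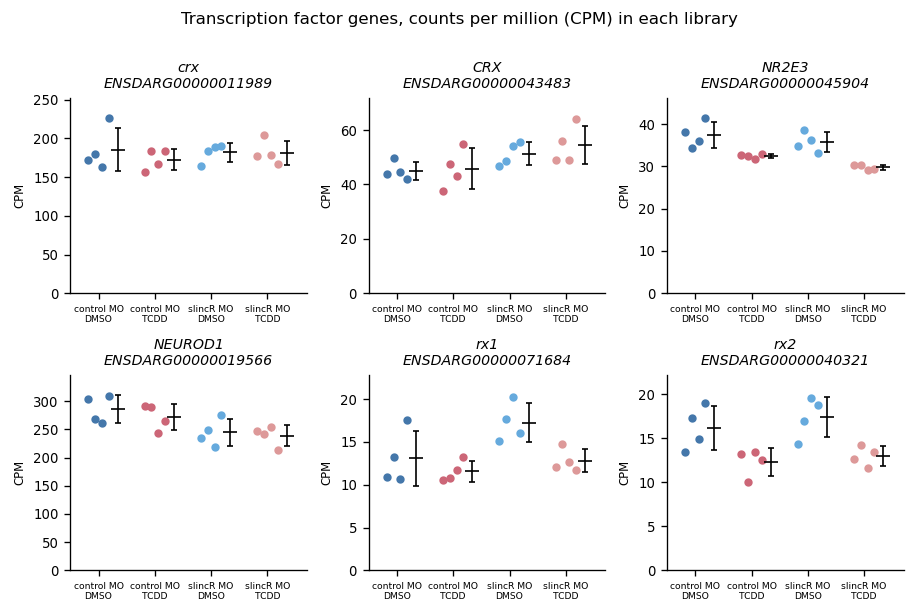
Level in CPM (y axis, from 0) of the 6 transcription factor rows in each library of the 4 groups (x axis), with the group mean and SD beside the points. The TCDD points of rx2 and NR2E3 lie below the DMSO points in both kinds of morphant, while those of crx overlap.

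The 12 other tested genes, from opsins to the visual cycle, were counted at low levels. Their summed counts over 16 libraries ran from 241 for gnb3b to 3087 for rlbp1a, against 4023 for rx1, the least counted transcription factor gene. This difference depends on which symbols matched a row. Some light-response and visual cycle rows that carry only a family name, described below, had more counts than rx1. They included PDE6G with 9175, RPE65 ENSDARG00000094752 with 5347 and RCVRN ENSDARG00000019902 with 5080. The biological coefficient of variation of the 12 genes (the spread between replicates beyond counting) ran from 16.2% for rcvrna to 33.1% for opn1sw2. Among the transcription factor genes it ran from 8.5% for NR2E3 to 13.7% for rx1. The median log2 fold change of the 12 was −0.22 for TCDD in control morphants, with 11 below 0, and −0.26 in slincR morphants, with 8 below 0. The morpholino's median was −0.28 in DMSO, with 10 below 0, and −0.22 in TCDD, with 9 below 0. In 3 of the 12 some libraries lay under the filter's cut of 0.543 CPM: opn1sw2 and gnb3b exceeded it in 12 of 16 libraries and PDE6C in 15.

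Of the opsins, the light-absorbing proteins themselves, opn1sw2 (ENSDARG00000017274) encodes the blue cone opsin. It had counts near the filter's limit. All 4 libraries of a group were above the cut only in control morphants in DMSO and slincR morphants in TCDD, the groups with the highest means. Its counts were 15, 15, 21 and 14 in control morphants in DMSO and 6, 11, 17 and 9 with TCDD. In slincR morphants they were 7, 27, 9 and 25 in DMSO and 21, 14, 19 and 38 with TCDD. The groups overlapped throughout, although the mean was lower with TCDD in control morphants and higher in slincR morphants. The log2 fold change for TCDD was −0.65 ± 0.45 in the former and 0.56 ± 0.42 in the latter, and the interaction of 1.2 ± 0.62 had the smallest unadjusted p of the 18 genes in that contrast, 0.0622 by the edgeR QL test (adjusted p = 1). Without replicate 4 of the slincR morphants in TCDD, which had 38 counts, the value in slincR morphants was 0.25 and the interaction 0.90. For the morpholino in TCDD the log2 fold change was 1.05 ± 0.44, with an interval of 0.14 to 1.95 (edgeR QL, BH adjusted p = 0.382).

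The 3 transducin genes tested encode alpha and beta subunits. GNAT1 (ENSDARG00000044199), the rod alpha subunit, measured 3.96, 3.64, 2.76 and 5.02 CPM in control morphants in DMSO and 2.41, 2.21, 2.71 and 2.94 CPM with TCDD. The slincR morphants gave 2.44, 3.36, 3.85 and 2.27 CPM in DMSO and 2.37, 1.79, 2.83 and 2.62 CPM with TCDD. Only replicate 3 of the control morphants in DMSO lay within the range of the control morphants in TCDD, and the log2 fold change there was −0.58 ± 0.24 (edgeR QL, BH adjusted p = 0.333). It was −0.43 without the replicate that stood apart, and −0.31 ± 0.24 in slincR morphants. GNAT2 (ENSDARG00000042529), the cone alpha subunit, had group means of 2.81 ± 0.751, 2.38 ± 0.715, 2.29 ± 0.721 and 1.95 ± 0.609 CPM (SD, n = 4) in the order control DMSO, control TCDD, slincR DMSO and slincR TCDD. Its intervals for TCDD, −0.85 to 0.37 and −0.86 to 0.39, held 0.

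The cone beta subunit gene gnb3b (ENSDARG00000002696) had counts of 29, 17, 16 and 21 in control morphants in DMSO and 14, 13, 6 and 11 with TCDD. In slincR morphants they were 7, 29, 16 and 16 in DMSO and 6, 17, 7 and 16 with TCDD. It was above the filter's cut in 12 of 16 libraries. All 4 libraries of a group were above it only in the control morphants in DMSO, where the mean was highest. Its log2 fold change for TCDD was −0.94 ± 0.43 in control morphants, with an interval of −1.82 to −0.06 (edgeR QL, BH adjusted p = 0.407), and −0.49 ± 0.43 in slincR morphants. The latter was −0.13 without replicate 2 of the slincR morphants in DMSO, which had 29 counts. For the morpholino in TCDD it was −0.03 ± 0.45, and the sign changed in 5 of the alternatives.

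PDE6C (ENSDARG00000100397), the catalytic subunit of the cone phosphodiesterase, was the only light-response gene with positive log2 fold changes in all 4 contrasts between groups. It measured 1.06, 1.33, 0.526 and 1.57 CPM and 1.43, 1.39, 2.37 and 1.58 CPM in control morphants in DMSO and TCDD. The slincR morphants measured 1.37, 0.89, 1.41 and 2.13 CPM and 1.73, 2.99, 2.56 and 1.54 CPM. The ranges overlapped in both. The log2 fold change for TCDD was 0.58 ± 0.35 in control and 0.60 ± 0.33 in slincR morphants, with intervals of −0.15 to 1.31 and −0.09 to 1.29 (edgeR QL, BH adjusted p = 0.561 and 0.796). The morpholino's value was 0.36 ± 0.35 in DMSO and 0.39 ± 0.33 in TCDD.

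Of the genes that shut the response off, the arrestin genes saga and sagb were tested; both belong to the rod (S-antigen) type of arrestin, which caps the activated opsin. In DMSO sagb (ENSDARG00000038378) measured 4.41, 5.59, 3.49 and 7.2 CPM in control and 2.74, 4.89, 3.04 and 2.94 CPM in slincR morphants. With TCDD it measured 3.25, 5.82, 3.73 and 5.66 CPM and 3.07, 3.91, 3.67 and 3.8 CPM. Replicate 2 of the slincR morphants in DMSO reached into the control range, and the other 3 lay below it. The morpholino's log2 fold change was −0.60 ± 0.24 in DMSO (edgeR QL, BH adjusted p = 0.463), −0.40 without the replicate that stood apart, and −0.35 ± 0.24 in TCDD. For saga (ENSDARG00000012610) the 16 libraries ran from 1.2 to 3.87 CPM, and its intervals for the morpholino were −0.81 to 0.46 in DMSO and −1.05 to 0.24 in TCDD.

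The recoverin gene rcvrna (ENSDARG00000052223), for a calcium sensor that restrains the opsin kinase, was the only one of the 12 whose groups did not overlap in a contrast. It measured 5.97, 6.93, 8.36 and 7.14 CPM in control morphants in DMSO and 5.66, 3.91, 5.87 and 4.85 CPM with TCDD. The slincR morphants gave 5.12, 5.58, 7 and 5.07 CPM in DMSO and 3.07, 4.93, 4.44 and 5.65 CPM with TCDD, which overlapped. The log2 fold change for TCDD was −0.49 ± 0.19 in control morphants, with an interval of −0.88 to −0.09 (edgeR QL, BH adjusted p = 0.309). The value in slincR morphants was −0.32 ± 0.19, and the difference of 0.16 ± 0.27 had an interval of −0.39 to 0.72. The morpholino's value was −0.32 ± 0.19 in DMSO and −0.15 ± 0.19 in TCDD.

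The visual cycle members were 2 genes for the retinal-binding protein CRALBP, which carries 11-cis-retinoid, and the retinol carrier-like gene rbp4l. In zebrafish rlbp1a is known from the pigment epithelium and rlbp1b from Müller glia. The gene rlbp1a (ENSDARG00000012504) had means of 10.5 ± 3.08, 10.5 ± 4.37, 10.6 ± 2.6 and 10.8 ± 1.27 CPM (SD, n = 4) in the order control DMSO, control TCDD, slincR DMSO and slincR TCDD. Its 16 libraries ran from 7.43 to 16.9 CPM, and its intervals for TCDD were −0.48 to 0.47 in control and −0.44 to 0.50 in slincR morphants. The highest library, replicate 3 of the control morphants in TCDD, measured 16.9 CPM beside 7.68 to 9.37 CPM in the rest of its group.

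For rlbp1b (ENSDARG00000045808) the values in slincR morphants were 6.61, 4.94, 4.83 and 7.69 CPM in DMSO and 5.19, 5.22, 5.72 and 3.8 CPM with TCDD. In control morphants they were 5.75, 6.52, 8.82 and 5.57 CPM and 5.59, 7.41, 6.21 and 5.28 CPM. All groups overlapped, and the lowest mean was that of slincR morphants in TCDD. Its log2 fold change for the morpholino in TCDD was −0.30 ± 0.20, with an interval of −0.71 to 0.10. The gene rbp4l (ENSDARG00000044684) measured 8.87, 8.78, 6.84 and 5.99 CPM in control morphants in DMSO and 5.53, 4.22, 9.6 and 6.26 CPM with TCDD. In slincR morphants it measured 6.55, 4.35, 7.92 and 6.54 CPM in DMSO and 4.68, 4.49, 4.72 and 4.73 CPM with TCDD. The last group lay in a narrow band, inside the range of each of the others except the control morphants in DMSO. For the morpholino in TCDD the log2 fold change was −0.46 ± 0.22 (edgeR QL, BH adjusted p = 0.449), and −0.19 without replicate 3 of the control morphants in TCDD. For TCDD in slincR morphants it was −0.44 ± 0.22 (edgeR QL, BH adjusted p = 0.73).

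**Figure D3:**
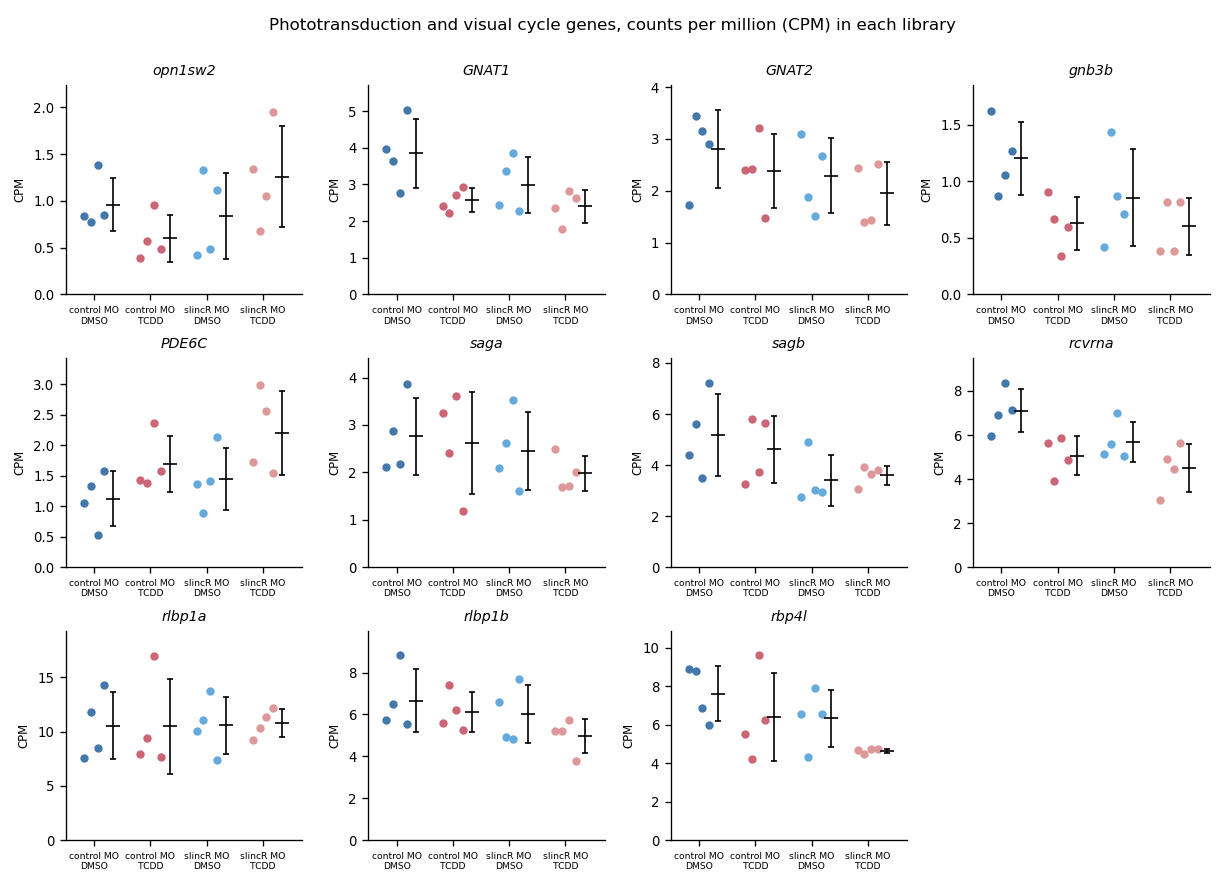
Level in CPM (y axis, from 0) of 11 tested light-response and visual cycle genes in each library of the 4 groups (x axis), with the group mean and SD beside the points. For rcvrna the control morphants with TCDD lie below those in DMSO, and for the other 10 genes shown the groups overlap in every contrast.

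The rows with too few counts included PDE6H, grk1b and guca1c. Over 16 libraries PDE6H, the inhibitory subunit of the cone phosphodiesterase, had 54 counts and was at 0 in 2 libraries, and the opsin kinase gene grk1b had 50 and was at 0 in 2. The gene guca1c, for a calcium-dependent activator of guanylate cyclase, had 27 and was at 0 in 5. Its counts were 2, 0, 0 and 0 in control morphants in DMSO, 1, 4, 5 and 4 with TCDD, 0, 1, 1 and 1 in slincR morphants in DMSO and 2, 2, 0 and 4 with TCDD. In a fit without the filter no gene of the set passed, and guca1c was the only one of the 5 with an unadjusted p under 0.05, 0.0399 by the edgeR QL test for TCDD in control morphants (adjusted p = 0.482). At so few counts, the lack of a call does not show that these rows did not differ.

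Libraries of the same group differed over these genes. A gene's deviation in a library is its log2 CPM there less the mean of its log2 CPM in all 16. The library with the highest median deviation was replicate 4 of the control morphants in DMSO, at 0.31 over the 6 transcription factor genes and 0.43 over the 12 others, the library that stood apart over all genes. Replicate 3 of the control morphants in TCDD had a median of 0.34 over the 12 others, while the rest of its group lay between −0.20 and −0.07. Its reads in no gene made up 13.40%, against 15.77% to 16.06% in the rest of that group, and the part of this share in the values was tested only by the covariate fit. The median log2 fold change of the 18 genes for TCDD in control morphants was −0.13 without the former library and −0.31 without the latter. In slincR morphants it was −0.15 and −0.13 without replicates 1 and 3 of the DMSO group, and −0.17 without replicate 2 of the TCDD group. The morpholino's median was −0.26 in DMSO without replicate 4 of the slincR group, and −0.05 in TCDD without replicate 1 of the slincR group.

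Of the 16 unmatched symbols, several belong to families that the gene table names without a paralogue letter. A list of 9 such family names, written after the gene table had been seen, gave 16 rows, of which 14 were tested. The gene table does not assign these rows to single paralogues, and near-identical copies lose reads that align to several places. The rows OPN1SW and GRK1 are distinct from the rows opn1sw2 and grk1b, which were matched by symbol. None of the 14 was called by the edgeR QL test in any contrast, and none by limma-voom. DESeq2 called 1 for TCDD in control morphants, where it also called more of all genes than edgeR did, as given below. At an unadjusted p under 0.05, edgeR gave 2, 1, 3, 2 and 2 of 14 in the order of contrasts above. Over all genes the shares under that p by edgeR were 11.2%, 6.91%, 9.11%, 10.8% and 2.99%. The median log2 fold change of the 14 rows was −0.31 for TCDD in control morphants, with 12 of 14 below 0, and 0.00 in slincR morphants. It was −0.31 for the morpholino in DMSO and 0.02 in TCDD.

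The RPE65 row ENSDARG00000007480 had the smallest p among them. RPE65 is the isomerase that remakes 11-cis-retinol, and the name matched 3 rows. This row measured 9.26, 13.7, 8.09 and 11.2 CPM in control morphants in DMSO and 6.18, 4.07, 6.49 and 5.55 CPM with TCDD. In slincR morphants it measured 8.94, 9.98, 18.1 and 7.92 CPM in DMSO and 9.93, 6.81, 8.61 and 10.8 CPM with TCDD. The control morphants with TCDD lay below all libraries of the other groups. The log2 fold change for TCDD in control morphants was −0.93 ± 0.23, with an interval of −1.41 to −0.45 (edgeR QL, BH adjusted p = 0.0679), which did not pass. It passed with DESeq2 (adjusted p = 0.0122) and without the filter (edgeR, adjusted p = 0.0246). It also passed without replicate 3 of the control morphants in DMSO (edgeR adjusted p = 0.0439). The same held without replicate 3 or 4 of the slincR morphants in DMSO (edgeR adjusted p = 0.0185 and 0.0473). It did not pass with limma-voom, other size factors, a replicate block or a covariate for reads in no gene. Nor did it pass with only the 8 samples compared or with any other library left out. In the slincR morphants it was −0.31 ± 0.22, and the difference of 0.61 ± 0.32 had an interval of −0.05 to 1.27 (edgeR QL, BH adjusted p = 1). The other RPE65 rows had values of −0.16 ± 0.14 and −0.49 ± 0.43 for TCDD in control morphants, on 5347 and 271 counts in all. The less counted one, RPE65 ENSDARG00000054420, had counts of 27, 20, 22 and 11 in control morphants in DMSO and 14, 5, 19 and 20 with TCDD. In slincR morphants they were 8, 10, 17 and 9 in DMSO and 22, 33, 13 and 21 with TCDD. The groups overlapped in every contrast, and the slincR morphants in DMSO had the lowest mean. Its log2 fold change for TCDD in slincR morphants was 1.07 ± 0.43, of the opposite sign to that in control morphants, with an interval of 0.17 to 1.97 (edgeR QL, BH adjusted p = 0.566). The difference was 1.55 ± 0.61 (edgeR QL, unadjusted p = 0.0175, adjusted p = 1). The morpholino gave −1.02 ± 0.44 without TCDD and 0.54 ± 0.42 with it.

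A recoverin row, RCVRN ENSDARG00000009637, measured 7.09, 4.82, 8.36 and 8.53 CPM in control morphants in DMSO and 4.68, 4.58, 4.46 and 4.41 CPM with TCDD. The TCDD libraries were close together and below all 4 DMSO libraries. In slincR morphants it measured 4.47, 4.84, 5.37 and 7.47 CPM in DMSO and 7.3, 5.55, 5.28 and 5.7 CPM with TCDD, with overlap. The log2 fold change for TCDD was −0.66 ± 0.19 in control and 0.10 ± 0.19 in slincR morphants (edgeR QL, BH adjusted p = 0.149 and 0.989), and the difference was 0.76 ± 0.27 (edgeR QL, unadjusted p = 0.0106, adjusted p = 1). In control morphants it passed with a covariate for reads in no gene (−0.83, edgeR adjusted p = 0.024) and without replicate 2 of the DMSO group (−0.82, edgeR adjusted p = 0.0438). With that covariate PDE6G, for the inhibitory subunit of the rod phosphodiesterase, passed as well (−0.53, edgeR adjusted p = 0.034), where without it the value was −0.19 ± 0.18. Neither row passed in any other alternative. Over all genes 283 passed in this contrast with the covariate, against 128 as reported. The share of reads in no gene ran from 12.78% to 14.99% in control morphants in DMSO. With TCDD it was 15.77%, 16.06%, 13.40% and 15.89%, so the covariate partly follows the exposure.

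The opsin row OPN1SW (ENSDARG00000045677) and an arrestin row, ARR3 ENSDARG00000098475 (ARR3 is the cone arrestin), had lower means in slincR morphants. In DMSO OPN1SW measured 3.01, 2.21, 2.5 and 4.54 CPM in control and 1.13, 1.68, 2.01 and 1.82 CPM in slincR morphants, without overlap. ARR3 measured 2.9, 2, 2.04 and 2.18 CPM in control and 1.13, 1.43, 1.9 and 0.534 CPM in slincR morphants, again without overlap. The log2 fold changes for the morpholino in DMSO were −0.87 ± 0.34 and −0.88 ± 0.36 (edgeR QL, BH adjusted p = 0.45 and 0.473). In TCDD they were −0.28 ± 0.35 and −0.81 ± 0.38. The rows of GNGT2 (the cone transducin gamma subunit), GRK1 and GRK7 (opsin kinases), PRPH2 (a protein of the disc rim) and the other ARR3 and RCVRN rows had intervals for the morpholino in DMSO that held 0.

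**Figure D4:**
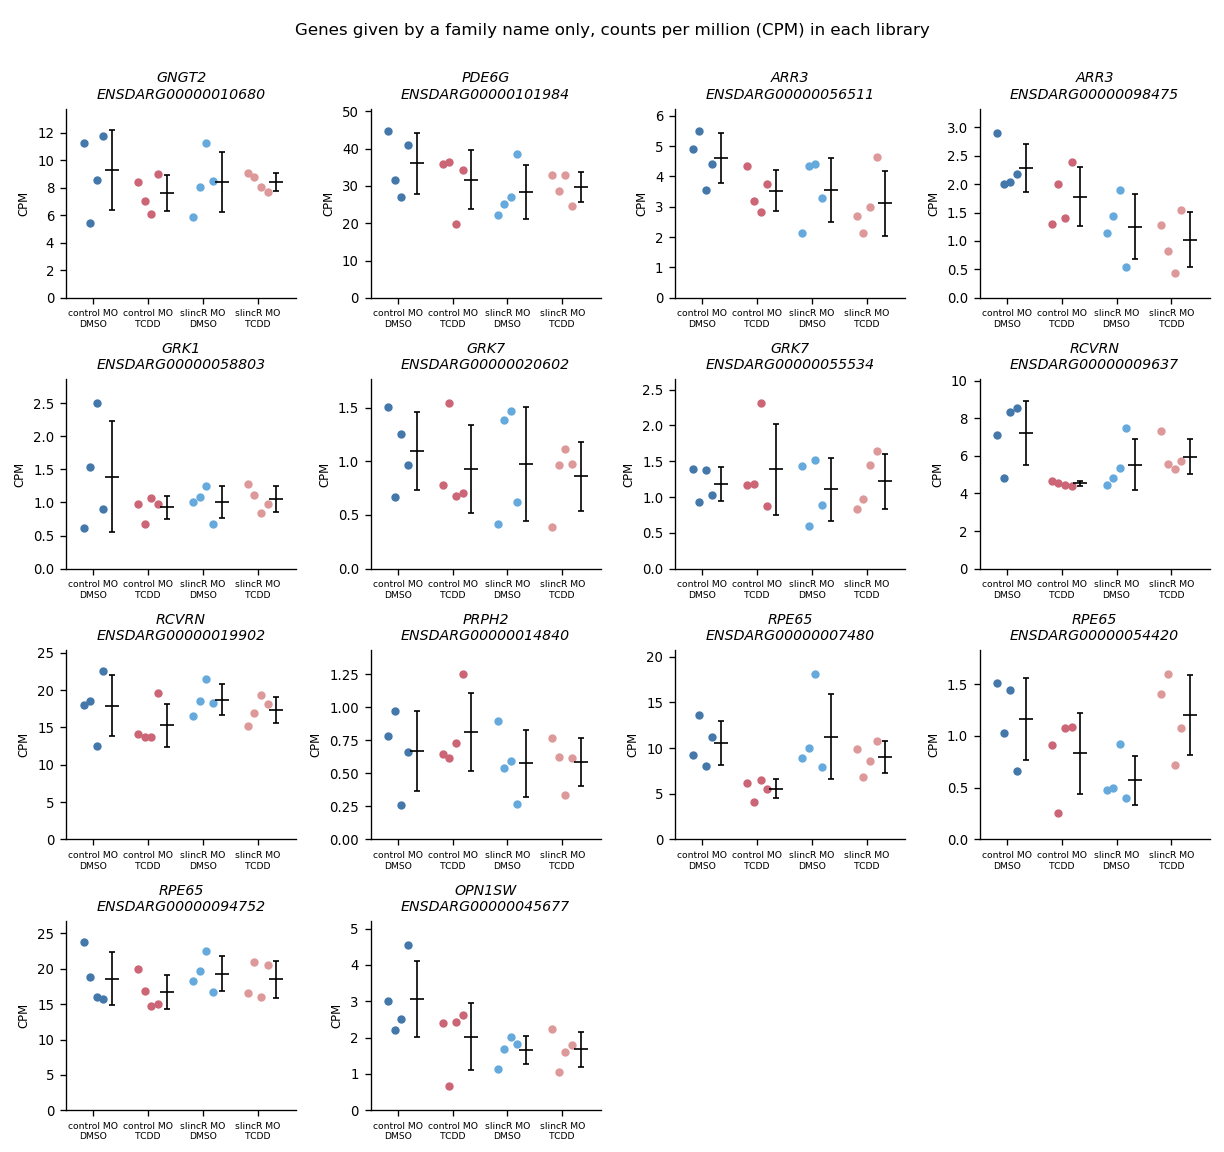
Level in CPM (y axis, from 0) of the 14 tested rows that carry only a family name, in each library of the 4 groups (x axis), with the group mean and SD beside the points. The control morphants with TCDD lie lowest for RPE65 ENSDARG00000007480, at 4.07 to 6.49 CPM.

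Other genes of the same pathways gave no call by the edgeR QL test in the 5 contrasts either. Of 61 further phototransduction symbols 41 matched, in 47 rows, of which 30 were tested. Their median log2 fold change was 0.02 for TCDD in control morphants, −0.05 in slincR morphants, and −0.04 and −0.01 for the morpholino in DMSO and TCDD. At an unadjusted p under 0.05, edgeR gave 4, 1, 1, 3 and 2 of the 30, where it gave 11.2%, 6.91%, 9.11%, 10.8% and 2.99% of all genes. The gene rgs9bp (ENSDARG00000009466), for an anchor of the protein that speeds transducin's shut-off, had −1.33 ± 0.49 for TCDD in control morphants (edgeR QL, BH adjusted p = 0.282). For the morpholino in TCDD the same row had 1.63 ± 0.48, without overlap (edgeR QL, BH adjusted p = 0.17). Both contrasts share the control morphants in TCDD. The interaction of this row was 1.37 ± 0.65 (edgeR QL, unadjusted p = 0.0457). CNGA1 had a smaller p for the interaction, with 2.13 ± 0.76 (edgeR QL, unadjusted p = 0.0103). Another row, RGS9BP ENSDARG00000086756, had −0.45 ± 0.23 for the morpholino in DMSO and 0.42 ± 0.23 for TCDD in slincR morphants. The cyclase gene gc2 had 1.59 ± 0.45 for the morpholino in DMSO (edgeR QL, BH adjusted p = 0.253). Of the long-wave and middle-wave opsin rows of this list, opn1lw1 had 13 counts over all libraries, and opn1mw1 to opn1mw4 had 36, 4, 4 and 0, too few to test.

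Of 35 further visual cycle symbols 15 matched, and 12 rows were tested. Their median log2 fold change for TCDD was −0.16 in control and −0.10 in slincR morphants, and 0.02 and −0.02 for the morpholino. The edgeR test gave 2, 2, 0, 2 and 2 of the 12 at an unadjusted p under 0.05, beside the same shares of all genes (11.2%, 6.91%, 9.11%, 10.8% and 2.99%). STRA6 (ENSDARG00000051874), the receptor that takes up retinol, had the smallest p, with a log2 fold change of −0.35 ± 0.09 for TCDD in control morphants, without overlap, which did not pass (edgeR QL, BH adjusted p = 0.0944). With TCDD, the slincR morphants lay above the control morphants without overlap, by 0.32 ± 0.09 (edgeR QL, BH adjusted p = 0.136).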

How the data were processed

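Per the labels, poly-A RNA of 16 whole-embryo samples was sequenced as paired 150 bp reads. The authors deposited raw counts per Ensembl gene, and lists of called genes with p-values adjusted by false discovery rate, deposited per the file headers; only membership in those lists was used. Per the submitters' processing notes the build was GRCz10 and the tools were FastQC, TopHat, HTSeq, SAMtools and edgeR. The sources used here do not give the strand setting or annotation release, so reads of genes that overlap, antisense ones included, cannot be separated. Entries that name no gene entered neither the library sizes nor the tests: reads in no gene were 12.78% to 16.06% per library, reads aligned to several places 24.44% to 29.35%, and ambiguous reads 0.27% to 0.33%.

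A gene table paired 26433 of 32266 identifiers with symbols, many in upper case. Counts were scaled by TMM (trimmed mean of M values), filtered by filterByExpr (minimum count 10) and fitted over all 16 samples with a mean per group in edgeR 4.0.16 (quasi-likelihood test, R 4.3.3, BH adjustment). The SE is the log2 fold change divided by the root of the test's F statistic. Deviations are on log2 CPM (prior count 2). The alternatives were DESeq2 1.42.0, limma-voom (limma 3.58.1), other size factors, no filter, the 8 samples compared, a replicate block, a covariate for reads in no gene, and each library left out. Scripts were tested on simulated data.

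The members and lists were chosen with earlier results of these data known. Values in every sample are given for up to 6 genes of smallest p in each contrast. They are also given for the most counted gene of each role. Exceptions are rlbp1a and, in DMSO, CRX, which are given by group means and SD. Genes of other lists are named when past the threshold, and otherwise at most 2 of smallest p. Each sample is a biological replicate per the labels. Depth limits the precision of low-count genes, and no sequence, transcript length or coordinate was used here. One member symbol, with 3 rows of which 1 was tested, is not reported here; it stays in the counts and medians over the set but is not shown in the figures.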

Additional observations from a re-analysis of the deposited data

Results flagged for a closer look

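Of 80 sets of 4 libraries examined (each tested gene and both list medians in each group), 3 held a library far from the other 3 of its group, where chance gives about 1 in 20, or 4. For opn1sw2 it was replicate 3 of the control morphants in DMSO, at 1.38 CPM beside 0.770 to 0.847 CPM. For sagb it was replicate 2 of the slincR morphants in DMSO, at 4.89 CPM beside 2.74 to 3.04 CPM. For the median deviation of the 6 transcription factor genes it was replicate 1 of the slincR morphants in DMSO, at −0.0333 beside 0.11 to 0.14.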

How the results depend on the processing

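Under the 23 alternatives, 0 of 2052 values of the 18 genes were called, and 99 changed sign, all of them at or under 0.207 (log2) in the reported fit. Leaving out each library in turn gave 0 to 0 called genes of the set in all 5 contrasts. Their median log2 fold change then ran from −0.31 to −0.13 for TCDD in control morphants, −0.25 to −0.13 in slincR morphants, −0.26 to −0.15 for the morpholino in DMSO, −0.14 to −0.05 in TCDD and −0.01 to 0.12 for the interaction.

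The count of called genes over the whole table moved more. In the order of the 4 contrasts between groups it was 128, 79, 31 and 92 as reported, 275, 165, 97 and 244 with DESeq2, 283, 130, 99 and 286 with a covariate for reads in no gene, and 69, 125, 17 and 180 with only the 8 samples compared. Without the filter it was 54 for the morpholino in DMSO. Leaving out 1 library gave 70 to 155, 61 to 114, 17 to 52, 22 to 115, and 0 to 0 for the interaction; the cause was not tested. For the interaction the 0 calls of edgeR stood beside 617 genes at an unadjusted p under 0.05, with 671 by DESeq2 and 662 by limma-voom. The 617 were 2.99% of the genes tested, less than the share of 0.05 that this threshold gives where no gene differs.

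Same-numbered samples had deviations correlated at −0.18 to 0.13, not over 0.1 in every pair, so the numbers were not taken as pairs. With the replicate number as a block the counts were 108, 86, 30, 109 and 0 over all genes and 0 for the set. Depth limits opn1sw2, gnb3b and PDE6C, with 241 to 479 counts in all, and the 5 untested rows.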

Other observations

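Lists of other eye cell types were also counted. Of all genes 0.62% were called for TCDD in control morphants, 0.383% in slincR morphants, and 0.446% for the morpholino in TCDD. In the Müller glia list 1 of 4 tested genes passed: cahz, a carbonic anhydrase gene that red blood cells also express, fell by 0.50 on the log2 scale with TCDD in control morphants (edgeR QL, BH adjusted p = 0.0362), with −0.22 ± 0.11 in slincR morphants. The median log2 fold change of the 4 for TCDD in control morphants was −0.01. The 4 include rlbp1a, which is also a gene of the set and, as stated above, is known from the pigment epithelium. In the list of the retinal pigment epithelium and pigment cells 1 of 11 passed in each of 2 contrasts. SLC45A2, for a melanosome transporter, fell by 0.45 with the morpholino in TCDD (edgeR QL, BH adjusted p = 0.0152), with −0.32 ± 0.09 in DMSO. The list was split for the morpholino in TCDD, with 6 of 11 below 0 and a median of −0.01. BHLHE40, for a transcriptional repressor, had 0.31 ± 0.09 there and did not pass (edgeR QL, BH adjusted p = 0.159). It rose by 0.41 with TCDD in slincR morphants (edgeR QL, BH adjusted p = 0.0429), where the list median was −0.03. The interaction of BHLHE40 was 0.24 ± 0.13, with an interval of −0.03 to 0.51. In the lens list 2 of 10 passed, crygm2d1 and crygmx, which fell by 0.54 and 0.53 with TCDD in slincR morphants (edgeR QL, BH adjusted p = 0.0338 and 0.0298). In control morphants they had −0.40 ± 0.12 and −0.33 ± 0.11, also without overlap (edgeR QL, BH adjusted p = 0.152 and 0.241), and the differences of −0.15 ± 0.17 and −0.20 ± 0.16 had intervals that held 0. They belong to a crystallin family of similar copies, and their counts are uncertain.

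No gene passed among the lists of retinal progenitors (18 tested), ganglion cells (7), amacrine and horizontal cells (10), bipolar cells (4) and the pineal organ (6). The factor gene atoh7, needed for retinal ganglion cells, had −0.48 ± 0.16 for TCDD in control and −0.49 ± 0.16 in slincR morphants, without overlap in either (edgeR QL, BH adjusted p = 0.2 and 0.3). The pineal melatonin enzyme gene aanat2 had −0.80 ± 0.29 for TCDD in control morphants (edgeR QL, BH adjusted p = 0.274). The TCDD response of slincR morphants less that of control morphants was 0.74 ± 0.40, with an interval of −0.10 to 1.57. For the morpholino in TCDD aanat2 had 0.65 ± 0.29 (edgeR QL, BH adjusted p = 0.413). Most of the pineal list went the other way there, with 5 of 6 tested genes below 0 and a median of −0.22. For the interaction 4 of the 6 were below 0, with a median of −0.15. For TCDD in control morphants 4 of the 6 were below 0, with a median of −0.09. The summed level of the 9 pineal rows ran from 37.3 to 41.0 CPM in control morphants in DMSO, 31.5 to 41.8 with TCDD, 35.2 to 41.7 in slincR morphants in DMSO and 32.3 to 38.0 with TCDD. The part of the pineal organ in the values of shared genes was not tested.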
